A study of Sus scrofa with 27 samples.

Results

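The CDK inhibitor family was measured in mural granulosa cells (GCs), the granulosa layer against the wall of the follicle. Its 8 members, CDKN1A, CDKN1B, CDKN1C, CDKN2A, CDKN2B, CDKN2C, CDKN2D and CDKN3, were taken by gene symbol from the 35670 Ensembl identifiers of the count tables, and all 8 were found. Of the 8, 6 had a mean count of 5 or more and were tested among 11384 named genes. The other two, CDKN1C and CDKN2A, are given as counts.

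The 27 RNA-seq libraries came from 13 full-fed (FF) and 14 feed-restricted (RES) wild type sows, first-litter TN70 crosses of Large White and Norwegian Landrace, with 1 follicle per sow taken by laser capture microdissection. FF sows received 6.5 kg of feed per day and RES sows 3.25 kg per day for the last 2 weeks of lactation. The restriction ended at weaning, and both groups were then fed alike until the ovaries were collected on day 2 post-weaning. The comparison asks how a negative energy balance before weaning affects the GCs of the largest healthy follicle. The sows used were those that lost the least weight on the full diet and the most on the restricted diet, and RES follicles were not matched to FF follicles in size, so that diet, weight loss and follicle size cannot be told apart.

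Cyclin-dependent kinases (CDKs) drive a cell through its division cycle when they are bound to a cyclin, and the inhibitors hold them back. The CIP/KIP proteins p21 (CDKN1A), p27 (CDKN1B) and p57 (CDKN1C) bind complexes of CDK and cyclin, mainly those of CDK2, whereas the INK4 proteins p16 (CDKN2A), p15 (CDKN2B), p18 (CDKN2C) and p19 (CDKN2D) bind CDK4 and CDK6 and keep cyclin D off them. CDKN3 is not a stoichiometric inhibitor but a phosphatase that acts on CDK2 and CDK1, and its transcript is made in dividing cells. Granulosa cells divide rapidly while the follicle grows and leave the cycle after the surge of luteinizing hormone, and p27 and p21 are known for their part in that exit.

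Library totals ran from 12299220 to 16021200 counts in FF and from 12942198 to 18120922 in RES. Of the granulosa markers VCAN, INHBA, INHA, FST and CYB5A, none was at 0 in any library, and the summed level of the granulosa list was 92960 to 163700 normalized counts in FF and 102700 to 169900 in RES. A normalized count is a count divided by the size factor of its library. RES sow 7 stood apart within its group in this family, with the highest CDKN1A and CDKN1B and the lowest CDKN2C, CDKN2D and CDKN3 of the 14. The libraries also fall into an upper (7 FF, 7 RES) and a lower (6 FF, 7 RES) sequencing quality group, divided where the percentage of base calls with a score of 20 or more shows a gap. It is uncertain whether the quality record of FF sow 10 belongs to that library, and the values within these groups depend on it.

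The sequence in front of CDKN3 and CDKN2D, which like the mitotic kinase CDK1 were higher in RES, is shown next to that of CDK1 and of CDKN1A, which was lower. Each line gives the 250 bases before the RefSeq start on Sscrofa11.1, read 5′ to 3′ along the gene. The positions are chr14:64233695-64233944 (forward) for CDK1, chr1:183792356-183792605 (forward) for CDKN3, chr2:69339999-69340248 (reverse) for CDKN2D and chr7:32354526-32354775 (forward) for CDKN1A. Capitals mark letters of the cell cycle genes homology region (CHR, TTTGAA), the CCAAT box (CCAAT), an E2F motif (TTCCCGC or TTGGCGC) or a FOXO motif (GTAAACA), each searched on both strands.
CDK1: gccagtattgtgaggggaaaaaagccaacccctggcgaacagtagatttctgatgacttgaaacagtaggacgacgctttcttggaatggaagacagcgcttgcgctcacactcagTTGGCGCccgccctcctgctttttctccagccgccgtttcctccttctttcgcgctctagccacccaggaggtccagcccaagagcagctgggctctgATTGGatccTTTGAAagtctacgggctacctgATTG
CDKN3: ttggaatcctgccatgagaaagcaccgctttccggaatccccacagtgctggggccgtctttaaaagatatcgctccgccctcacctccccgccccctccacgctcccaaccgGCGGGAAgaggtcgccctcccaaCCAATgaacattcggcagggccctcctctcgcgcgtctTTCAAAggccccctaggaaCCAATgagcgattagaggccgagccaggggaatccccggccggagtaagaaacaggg
CDKN2D: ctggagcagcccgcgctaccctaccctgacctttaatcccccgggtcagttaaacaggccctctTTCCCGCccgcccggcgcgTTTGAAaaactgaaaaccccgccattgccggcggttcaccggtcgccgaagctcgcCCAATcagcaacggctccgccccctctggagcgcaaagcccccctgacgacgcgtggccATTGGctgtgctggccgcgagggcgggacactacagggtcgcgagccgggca
CDKN1A: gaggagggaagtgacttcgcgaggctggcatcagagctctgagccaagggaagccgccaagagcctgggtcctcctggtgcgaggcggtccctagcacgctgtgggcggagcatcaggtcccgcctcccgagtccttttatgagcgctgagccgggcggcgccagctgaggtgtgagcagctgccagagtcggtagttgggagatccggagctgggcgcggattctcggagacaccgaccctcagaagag
In a window of 300 bases that also holds the first 50 after the start, CDK1, CDKN3 and CDKN2D each held a CHR, a CCAAT box and an E2F motif. Of 19531 such windows across the genome, 14.0% held the CHR letters, 35.4% a CCAAT box, 9.72% an E2F motif and 2.65% the FOXO letters, and 0.466% held the first 3 together. The CHR lay 27 bases before the start in CDK1, with a second match 30 bases after it, and 76 and 167 bases before the start in CDKN3 and CDKN2D. In CDK1 the last capitals run on into the start base. CDKN2C, which was also higher in RES, held only an E2F motif, 19 bases after its start. CDKN1C held only a CCAAT box, 5 bases after its start. CDKN1A, CDKN1B and CDKN2B held none of these letters in their windows. A GC box (GGGCGG), held by 50.6% of windows and not marked in capitals, was in all of the windows except that of CDKN2B, and in CDKN2D it shares bases with the E2F letters. A TATA box (TATAAA), held by 10.9% of windows, was in none of them. A match of letters is a description and not a binding site.

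RES sows had less CDKN1A and more CDKN3, CDKN2D and CDKN2C transcript than FF sows, and CDKN1B and CDKN2B passed the test in neither direction. By edgeR's quasi-likelihood test, 4 of the 6 tested members were called at an adjusted p under 0.05, where 14.1% of all genes tested were called. Called higher were 3 of the 6, with 8.29% of all genes, and 1 was called lower, with 5.85% of all genes. In bulk samples, fewer cells of a type and less RNA per cell cannot be told apart, and the sows within a diet differed several-fold in some members. Without RES sow 7 the same 4 members were called by edgeR (adjusted p = 0.000524 for CDKN1A, 0.000296 for CDKN3, 0.00216 for CDKN2D and 0.0191 for CDKN2C). The call of CDKN2C was lost in 18 of the 27 fits that left out 1 library.

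**Figure D1:**
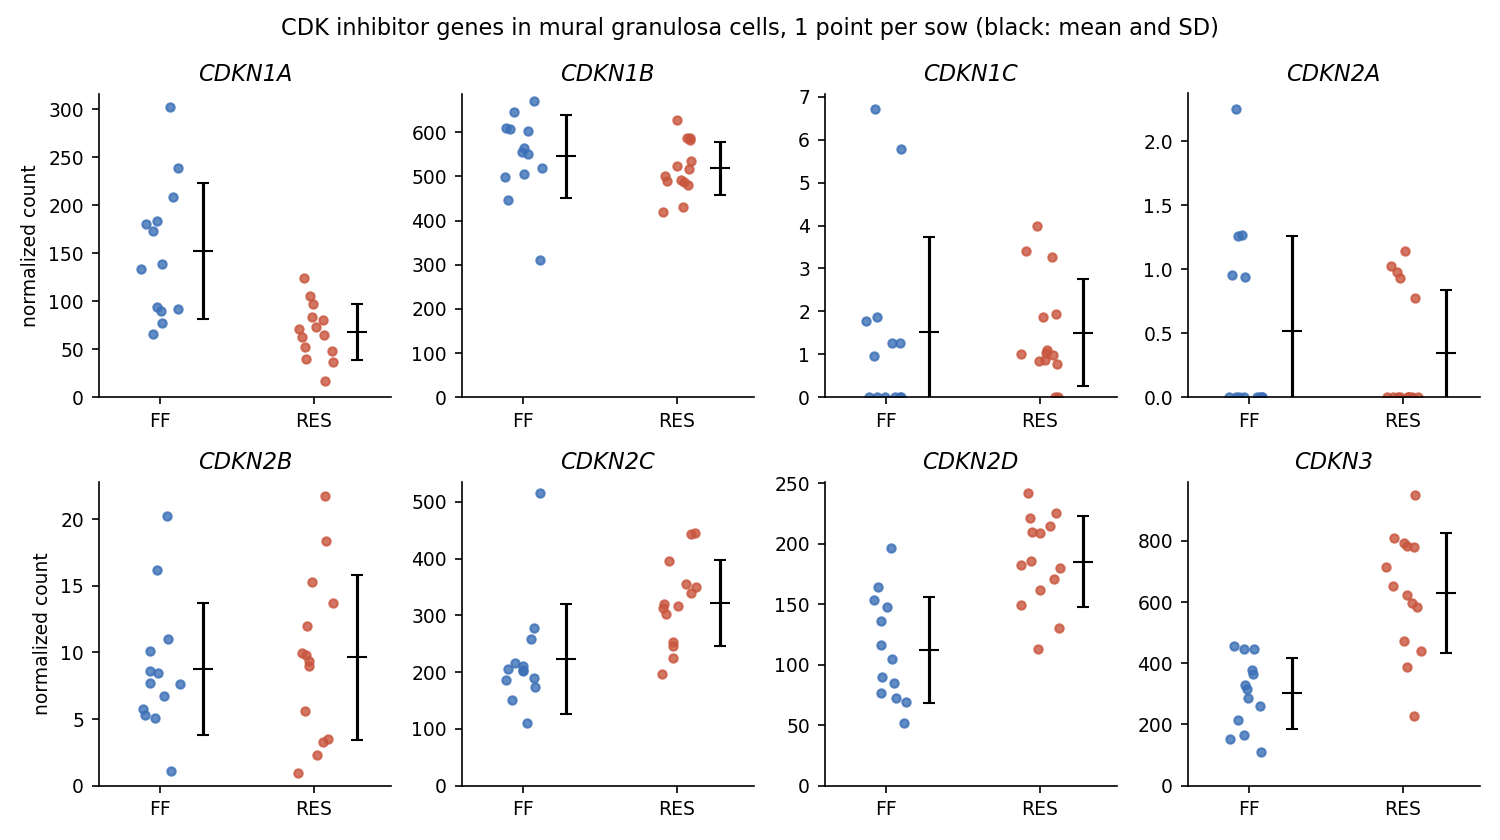
Normalized counts of each inhibitor (y axis) in FF (blue, 13 sows) and RES (red, 14 sows), 1 point per sow, with the mean and SD in black. Each of the 14 RES points is below the FF median for CDKN1A and above it for CDKN2D, 11 RES sows lie above every FF sow for CDKN3, and CDKN1C and CDKN2A stay within a few counts.

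CDKN1A (p21, ENSSSCG00000001565, chr7:32354776-32363771) had 66.0 normalized counts in the lowest FF sow, 139 at the FF median and 302 in the highest. In RES it had 16.6 in the lowest sow, 67.5 at the median and 124 in the highest. The groups overlapped, but no RES sow reached the FF median, which held for 0.870% of all genes tested, and 8 of 13 FF sows lay above the highest RES sow. The RES mean was 0.448 times the FF mean (152 ± 70.8, SD, n = 13, against 68.2 ± 29.0, SD, n = 14). On the log2 scale RES was lower, with a fold change of -1.19 (SE 0.244, adjusted p = 0.0025 by edgeR). It varied widely between sows of one diet, with a coefficient of variation of 46.5% in FF and 42.5% in RES, while the median over the 7938 genes averaging 50 normalized counts or more was 20.7% and 20.2%.

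CDKN1B (p27, ENSSSCG00000037144, chr5:59731224-59735831) held a narrow range. It had 310 normalized counts in the lowest FF sow, 554 at the FF median and 670 in the highest, against 419, 509 and 628 in RES. The low FF value was that of FF sow 10, and the other 12 FF sows overlapped almost wholly with the RES sows. On the log2 scale RES stood at -0.11 against FF (SE 0.0885, adjusted p = 0.418 by edgeR), and -0.16 without FF sow 10 (adjusted p = 0.139). In the fit without FF sow 10, CDKN1B had an unadjusted p under 0.05 by edgeR, as did 3772 of 11384 genes. Its coefficient of variation was 17.3% in FF and 11.6% in RES, the lowest of the family in both diets.

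CDKN1C (p57, ENSSSCG00000040461, chr2:2019391-2022092) was at the limit of detection, with 19 counts over all FF libraries and 22 over all RES libraries. It had no count in 6 of 13 FF and 2 of 14 RES libraries, and at most 6 in any library. A count of 0 allows up to 3 counts, which is 0.166 to 0.244 CPM in these libraries, for counting error only. The RES mean was 0.996 times the FF mean, and a fit with no count filter put RES at -0.03 against FF on the log2 scale (SE 0.574, adjusted p = 0.982 by edgeR).

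Among the INK4 genes, CDKN2C and CDKN2D made up nearly all of the transcript. CDKN2D (p19, ENSSSCG00000013643, chr2:69337428-69339998) had 51.8 normalized counts in the lowest FF sow, 104 at the FF median and 197 in the highest, and 113, 184 and 242 in RES. Every one of the 14 RES values exceeded the FF median, as in 1.87% of all genes tested, 6 lay above every FF sow, and 7 of 13 FF sows lay below every RES sow. The RES mean was 1.65 times the FF mean (log2 fold change 0.68, SE 0.160, adjusted p = 0.0058 by edgeR).

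CDKN2C (p18, ENSSSCG00000003876, chr6:161160290-161166681) had 110.5 normalized counts in the lowest FF sow, 204 at the FF median and 515 in the highest, and 197, 318 and 446 in RES. The FF median was exceeded in 13 of 14 RES sows, and 9.00% of all genes tested had at least 13 of the 14 there. The highest value of all was that of FF sow 3, which was also the FF sow with the most CDK1. The RES mean was 1.44 times the FF mean (log2 fold change 0.48, SE 0.159, adjusted p = 0.0403 by edgeR). This call was near the threshold: it was lost in 18 of the 27 fits that left out 1 library. These were the fits without FF sow 2, 5, 6, 7, 8, 11, 12, 13 or 14, or RES sow 1, 3, 5, 6, 8, 9, 11, 12 or 14, with an adjusted p of up to 0.0728 (without FF sow 8). Without FF sow 3 the log2 fold change was 0.64 and the adjusted p 0.00146.

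CDKN2B (p15, ENSSSCG00000034120) was detected in every library at low depth, with 1 to 18 counts in FF and 1 to 19 in RES. The normalized counts were 1.10 in the lowest FF sow, 7.69 at the median and 20.2 in the highest, against 0.964, 9.58 and 21.8 in RES, so that the groups overlapped throughout. On the log2 scale RES stood at 0.09 against FF (SE 0.348, adjusted p = 0.896 by edgeR). Its RefSeq model (chr1:200666250-200770880) overlaps a long non-coding RNA gene, LOC106509137, on the opposite strand, and reads of the pair cannot be told apart because no strand option was used in counting. CDKN2A (p16, ENSSSCG00000005134) had 6 counts over all FF and 5 over all RES libraries, with no count in 8 of 13 FF and 9 of 14 RES libraries.

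CDKN3, the phosphatase (ENSSSCG00000005047, chr1:183792606-183809178), had the largest rise of the tested members. It had 109.6 normalized counts in the lowest FF sow, 315 at the FF median and 456 in the highest, against 229, 638 and 951 in RES. The highest FF sow was exceeded by 11 of the 14 RES sows and the FF median by 13, RES sow 7 being the exception. At least 13 RES sows lay above the FF median in 9.00% of all genes tested. For sows beyond every sow of the other diet, no share over all genes was computed. The RES mean was 2.09 times the FF mean (log2 fold change 1.01, SE 0.201, adjusted p = 0.0019 by edgeR).

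The 4 called members kept their direction within both sequencing quality groups. In the upper group 2 of the 6 tested members were called by edgeR, with 17.8% of all genes, CDKN1A (log2 fold change -1.43, adjusted p = 0.0141) and CDKN3 (1.13, adjusted p = 0.0149). Of the 6, 4 had an unadjusted p under 0.05 there by edgeR, as did 3888 of 11384 genes. Besides these 2 they were CDKN1B (-0.29, adjusted p = 0.0509) and CDKN2D (0.57, adjusted p = 0.0662), while CDKN2C had 0.37 (adjusted p = 0.308). In the lower group 0 of 6 were called by edgeR, with 0.00878% of all genes, and 4 of the 6 had an unadjusted p under 0.05, as did 12.2% of all genes: CDKN1A (-1.02), CDKN2C (0.62), CDKN2D (0.81) and CDKN3 (0.88). No interaction of diet and quality group was called for a member. The smallest p was that of CDKN1B, at -0.29 in the upper and 0.09 in the lower group (unadjusted p = 0.0339, adjusted p = 0.378 by edgeR). It was the 1 member of the 6 with an unadjusted p under 0.05 in that test, where 12.3% of all genes had one, so this share is near the background.

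**Figure D2:**
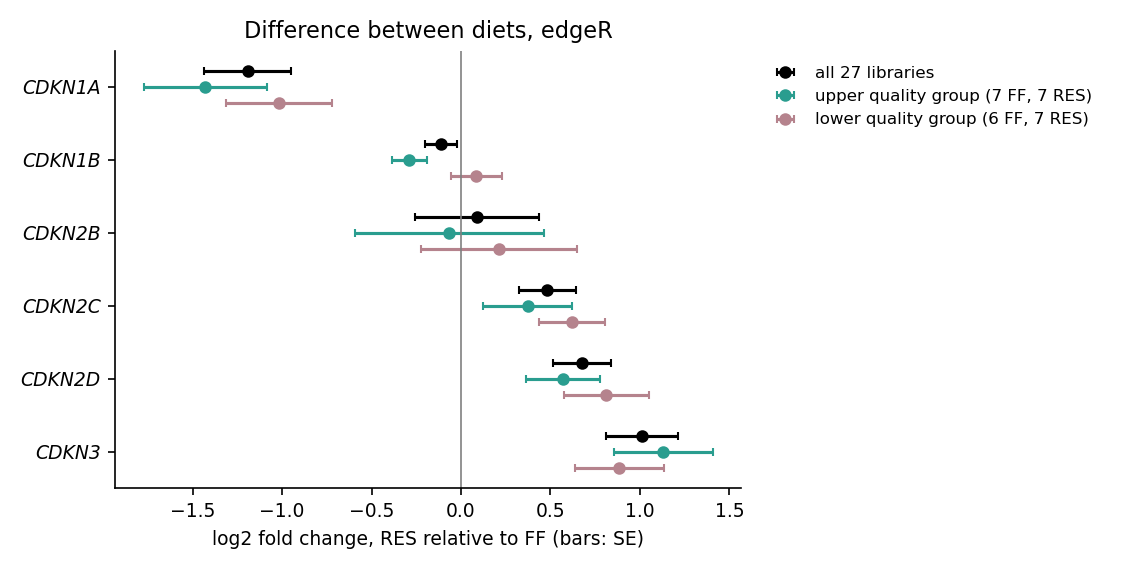
Log2 fold change of RES relative to FF (x axis, bars show the SE) for the 6 tested inhibitors, over all 27 libraries (black) and within the upper (green) and lower (pink) sequencing quality group. CDKN1A is negative and CDKN2C, CDKN2D and CDKN3 are positive in all 3 fits, and CDKN1B and CDKN2B change sign between the groups.

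Markers of other cell types also differed between the diets, all of those called being lower in RES, as were 5.85% of all genes tested. Of the theca markers 1 of 6 tested was called, CYP11A1 (log2 fold change -1.28, adjusted p = 0.0092 by edgeR), and the summed level of the list was 2392 to 13630 normalized counts in FF and 1108 to 12600 in RES. Of the endothelial markers 2 of 6 were called, CDH5 (-0.56) and EMCN (-0.78), with a summed level of 1162 to 2368 in FF and 822 to 2336 in RES. Of the mural and smooth muscle markers 2 of 6 were called, PDGFRB (-0.61) and RGS5 (-0.77), with a summed level of 2804 to 8142 in FF and 1885 to 7923 in RES. The median log2 fold change was -0.73 over the theca, -0.49 over the endothelial and -0.35 over the mural and smooth muscle markers, beside -0.02 over all genes tested. Among those not called, CYP17A1 (-1.11), INSL3 (-0.56), TEK (-0.54), KDR (-0.43) and MYH11 (-0.82) had an unadjusted p under 0.05 by edgeR (0.00766, 0.0272, 0.00856, 0.0143 and 0.0466). No marker of these 3 lists was at 0 in any library, and their part in the differences of the inhibitors was not tested. Of the granulosa markers 1 of 11 tested was called, GJA1 (-0.58). INHBB went the other way (0.66, unadjusted p = 0.0187, adjusted p = 0.0907 by edgeR), and the median of the granulosa list was 0.11. Of the immune (3 tested), stroma (5), erythroid (1) and oocyte (2) markers none was called by edgeR. Among these 11, CD163, COL3A1 and PDGFRA had an unadjusted p under 0.05 (0.0162, 0.0255 and 0.0456), a share no higher than that of all genes tested (3420 of 11384).

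To set the members against each other, normalized counts were divided by the exon bases of the RefSeq gene model, since a longer transcript gives more counts. The reads were counted on Ensembl exons, which may differ in length from those of RefSeq. In FF, CDKN1B had 278 ± 48.2 normalized counts per kilobase (SD, n = 13) and CDKN3 238 ± 92.2, which overlapped, so that the order of these 2 was not resolved. CDKN2D (88.4 ± 34.4), CDKN2C (75.9 ± 33.1) and CDKN1A (71.4 ± 33.2) followed, and the ranges of these 3 overlapped. The order of genes measured in the same sows was not tested. In RES, CDKN3 led with 496 ± 154 (SD, n = 14), followed by CDKN1B (265 ± 30.8), CDKN2D (145 ± 29.6), CDKN2C (109 ± 25.7) and CDKN1A (32.0 ± 13.6). CDKN2B and CDKN1C were near 1 per kilobase or lower in both diets, though CDKN2B, whose RefSeq transcripts differ widely in length, had 19.4 in FF and 21.4 in RES when divided by its shortest. CDKN2A had no length in the annotation used and was not ranked.

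Counted by sow, CDKN1B was the most abundant member per kilobase in 8 of 13 FF sows and CDKN3 in the other 5. In RES, CDKN3 was the most abundant in 13 of 14 sows, and CDKN1B in the remaining one, RES sow 7. CDKN1A made up 9.82% ± 5.10 (SD, n = 13) of the summed level per kilobase in FF and 3.27% ± 1.92 (SD, n = 14) in RES, and CDKN3 made up 30.8% ± 8.68 and 46.2% ± 9.76. CDKN1A was the lowest of the 5 well-detected members in all 14 RES sows, whereas in FF CDKN2C lay above it in 8 of 13 sows and CDKN2D in 7. CDKN3 has 12 RefSeq transcripts of 797 to 1215 bases, and with the shortest length of each gene in place of all exon bases, a choice made after seeing the data, CDKN3 lay above CDKN1B in 10 of 13 FF sows. The same length gave 13 of 14 RES sows. It also put CDKN2C (132 per kilobase in FF, 190 in RES) above CDKN2D (88.4 and 145), so the order of these INK4 genes depends on the length used. With it CDKN2C lay above CDKN1A in 11 of 13 FF sows, in place of 8, and CDKN2B above CDKN1A in 5 of 14 RES sows, in place of 0.

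**Figure D3:**
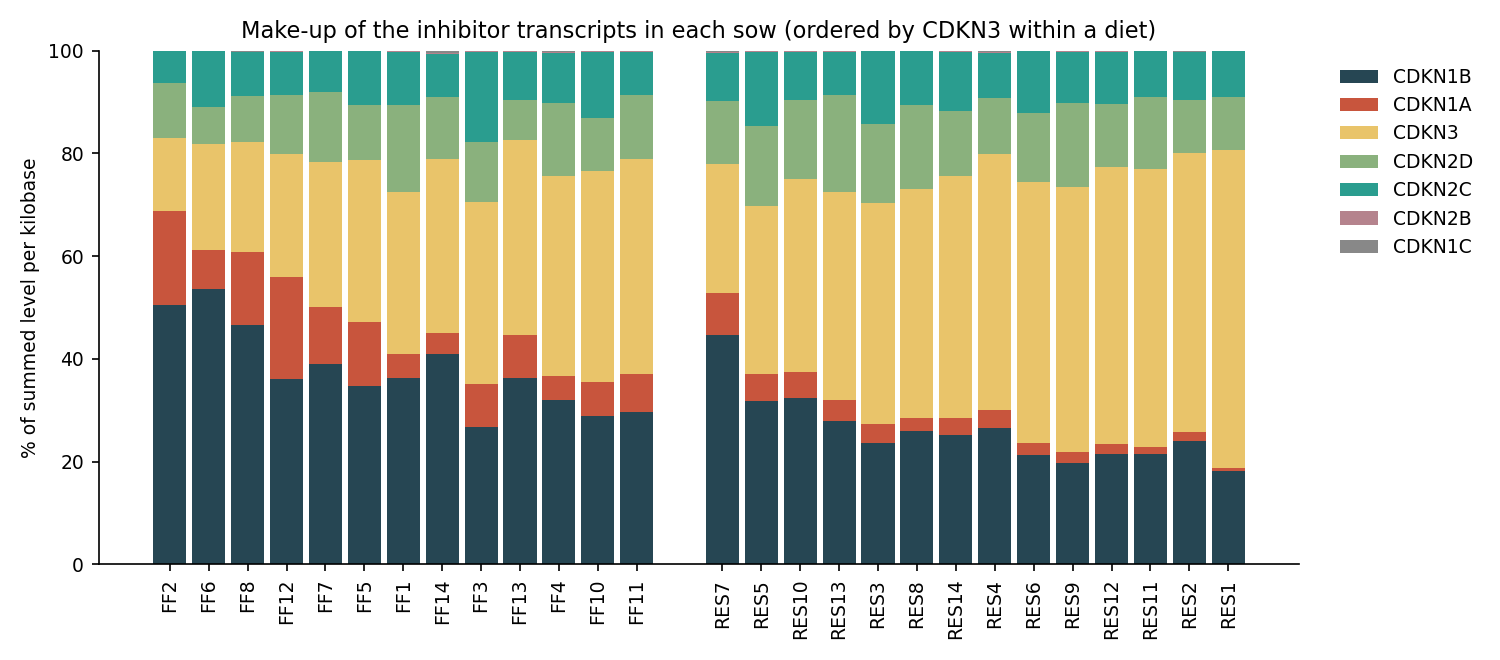
Share of each inhibitor in the summed normalized counts per kilobase of exon (y axis, percent) in every sow, with FF left and RES right, each ordered by the share of CDKN3. CDKN3 takes 14.1% to 41.9% in FF and 25.1% to 61.8% in RES, and RES sow 7, the first bar of its group, is the RES sow in which CDKN1B takes the largest share.

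Within each diet, the members were compared with CDK1 (chr14:64233945-64255290), for which the highest sow had several times the level of the lowest. CDK1 had 185 normalized counts in the lowest FF sow, 553 at the median and 1607 in the highest, and 399, 1434 and 2545 in RES, so that RES stood 1.03 above FF on the log2 scale (SE 0.261, adjusted p = 0.0093 by edgeR). Its RefSeq model overlaps a pseudogene on the opposite strand at its start, so its count is uncertain to that extent. Correlations were computed for 6 members in 2 diets, with p-values from 100000 permutations adjusted over these 12, and 1e-05 is the smallest p they can give. In FF, 3 of the 6 members passed the threshold and all 3 were positive, and in RES 3 passed, of which 2 were negative. Of the 11383 genes tested besides CDK1, 3.92% had an r with CDK1 at least as large in size as the weakest of these members in FF (3.40% positive, 0.518% negative) and 14.7% in RES (10.6% positive, 4.11% negative).

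CDKN3 followed CDK1 in both diets. In FF r was 0.84 (permutation p = 0.00016, adjusted 0.00048; rho 0.90, permutation p = 0.00011) and in RES 0.96 (permutation p = 1e-05, adjusted 0.00012; rho 0.91, permutation p = 1e-05). With the 2 sows most distant from the CDKN3 median left out, r was 0.81 and 0.91, and without RES sow 7 alone it was 0.94 in RES. Within the quality groups r was 0.82 (upper) and 0.92 (lower) in FF and 0.96 and 0.95 in RES.

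CDKN1A fell as CDK1 rose among RES sows. In RES r was -0.89 (permutation p = 4e-05, adjusted 0.00016; rho -0.85, permutation p = 0.00024), -0.84 without RES sow 7, -0.77 with the 2 sows most distant from the CDKN1A median left out, and -0.82 among the sows of the upper quality group and -0.90 among those of the lower. RES sow 1 had the least CDKN1A (16.6 normalized counts) and the most CDK1 (2545) and CDKN3 (951), and RES sow 7 had the most CDKN1A (124) and the least CDK1 (399) and CDKN3 (229). In FF r was -0.29 (permutation p = 0.341, adjusted 0.454; rho -0.35, permutation p = 0.241), 0.08 without the 2 farthest sows and -0.48 without FF sow 3. Among FF sows of the upper quality group it was -0.12 (exact permutation p = 0.777) and among those of the lower -0.63 (exact permutation p = 0.165). The difference between the diets did not pass the threshold (permutation p = 0.0381, adjusted 0.128 over 6 members).

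CDKN1B had an r of -0.67 with CDK1 in RES (permutation p = 0.00979, adjusted 0.0196; rho -0.65, permutation p = 0.0138) and of 0.07 in FF (permutation p = 0.805, adjusted 0.878; rho 0.07, permutation p = 0.836). In RES it was -0.69 with the 2 sows most distant from the CDKN1B median left out, -0.54 without RES sow 7 alone, and -0.49 among the sows of the upper quality group (exact permutation p = 0.277) and -0.66 among those of the lower (exact permutation p = 0.112), so that it did not pass within either. As residuals within the quality groups it was -0.56 (permutation p = 0.037, adjusted 0.0635). In FF it was -0.51 in the upper (exact permutation p = 0.243) and 0.52 in the lower group (exact permutation p = 0.304). The difference between the diets had an unadjusted permutation p of 0.0427 (adjusted 0.128).

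CDKN2C and CDKN2D followed CDK1 in FF. For CDKN2C, r in FF was 0.88 (permutation p = 2e-05, adjusted 0.00012; rho 0.96, permutation p = 1e-05), also 0.88 with the 2 most distant sows left out, and 0.87 among the sows of the upper quality group and 0.94 among those of the lower. In RES it was 0.47 (permutation p = 0.0887, adjusted 0.133; rho 0.34, permutation p = 0.233), 0.30 without RES sow 7 and 0.62 without RES sow 5. On log2 values it was 0.58 and passed the threshold (adjusted permutation p = 0.0489). Among RES sows of the upper quality group it was 0.65 (exact permutation p = 0.1) and among those of the lower 0.54 (exact permutation p = 0.22). The difference between the diets was not called with r (permutation p = 0.124, adjusted 0.133) and was called with rho (permutation p = 0.0018, adjusted 0.0108). For CDKN2D, r in FF was 0.69 (permutation p = 0.00758, adjusted 0.0182; rho 0.70, permutation p = 0.00983), 0.61 with the 2 most distant sows left out (permutation p = 0.0315, adjusted 0.0631), and 0.74 and 0.71 within the quality groups (exact permutation p = 0.0579 and 0.101). In RES it was 0.21 (permutation p = 0.476, adjusted 0.571; rho 0.03, permutation p = 0.916) and -0.12 without RES sow 7, and the difference had a permutation p of 0.106 (adjusted 0.133). CDKN2B passed in neither diet (r 0.01 in FF, permutation p = 0.971, and -0.49 in RES, permutation p = 0.0779).

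**Figure D4:**
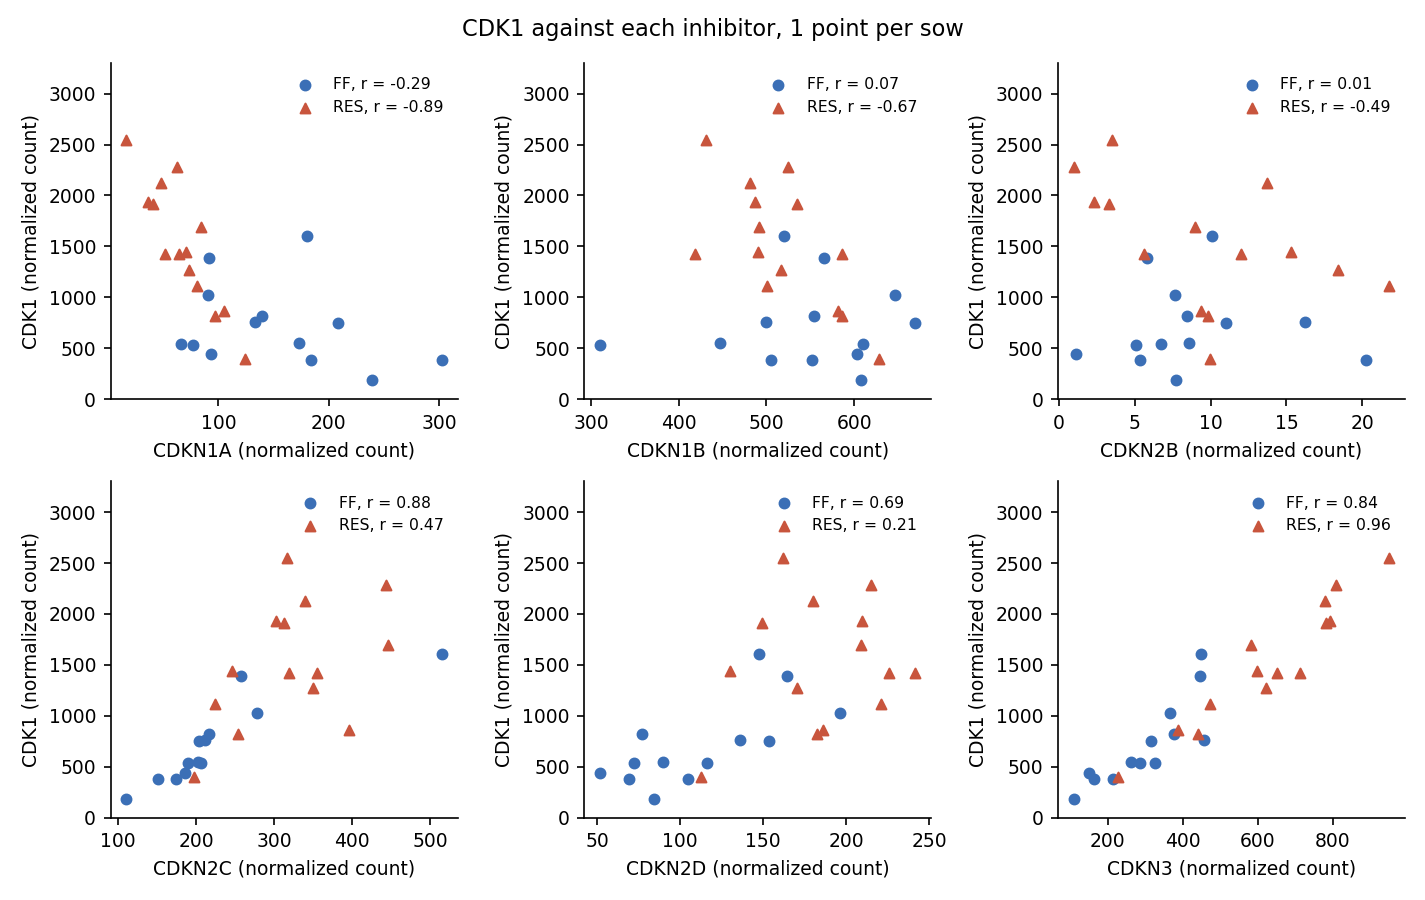
Normalized counts of CDK1 (y axis) against those of each tested inhibitor (x axis), 1 point per sow, FF as blue circles and RES as red triangles, with Pearson's r in each panel. CDKN3 rises with CDK1 in both diets, and CDKN1A has an r of -0.89 in RES and -0.29 in FF, a difference that did not pass the threshold. CDKN2C has an r of 0.88 in FF and 0.47 in RES, a difference that passed the threshold with rho and not with r.

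Between the inhibitors themselves, 30 correlations were computed (15 pairs in each diet), and 4 passed the threshold after adjustment over the 30. The share among pairs of other genes was not computed, so this count has no background beside it. CDKN1A and CDKN3 ran opposite to each other in RES, with an r of -0.96 (permutation p = 1e-05, adjusted 0.0003; rho -0.95, permutation p = 2e-05) and of -0.93 without the 2 farthest sows. In FF their r was -0.39 (permutation p = 0.188, adjusted 0.427), and the difference between the diets was not tested. CDKN1A and CDKN1B, both CIP/KIP genes, had an r of 0.74 in RES (permutation p = 0.00246, adjusted 0.0246; rho 0.66, permutation p = 0.0124, adjusted 0.124), which fell to 0.52 without the 2 farthest sows (permutation p = 0.0823). On log2 values and on TMM-scaled counts this pair passed the threshold (adjusted permutation p = 0.0436 and 0.0241). CDKN1B and CDKN3 had an r of -0.71 in RES (permutation p = 0.00408, adjusted 0.0306; rho -0.57, permutation p = 0.0353, adjusted 0.159), and of -0.63 without the 2 farthest sows (permutation p = 0.03, adjusted 0.18). CDKN2C and CDKN3 had an r of 0.66 in FF (permutation p = 0.00219, adjusted 0.0246; rho 0.87, permutation p = 0.00024), and of 0.72 without the 2 farthest sows (permutation p = 0.0103, adjusted 0.103). As residuals within the quality groups, the pair CDKN1A and CDKN3 remained past the threshold (r -0.95, permutation p = 2e-05), and the other 3 did not (adjusted permutation p = 0.084 to 0.108).

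**Figure D5:**
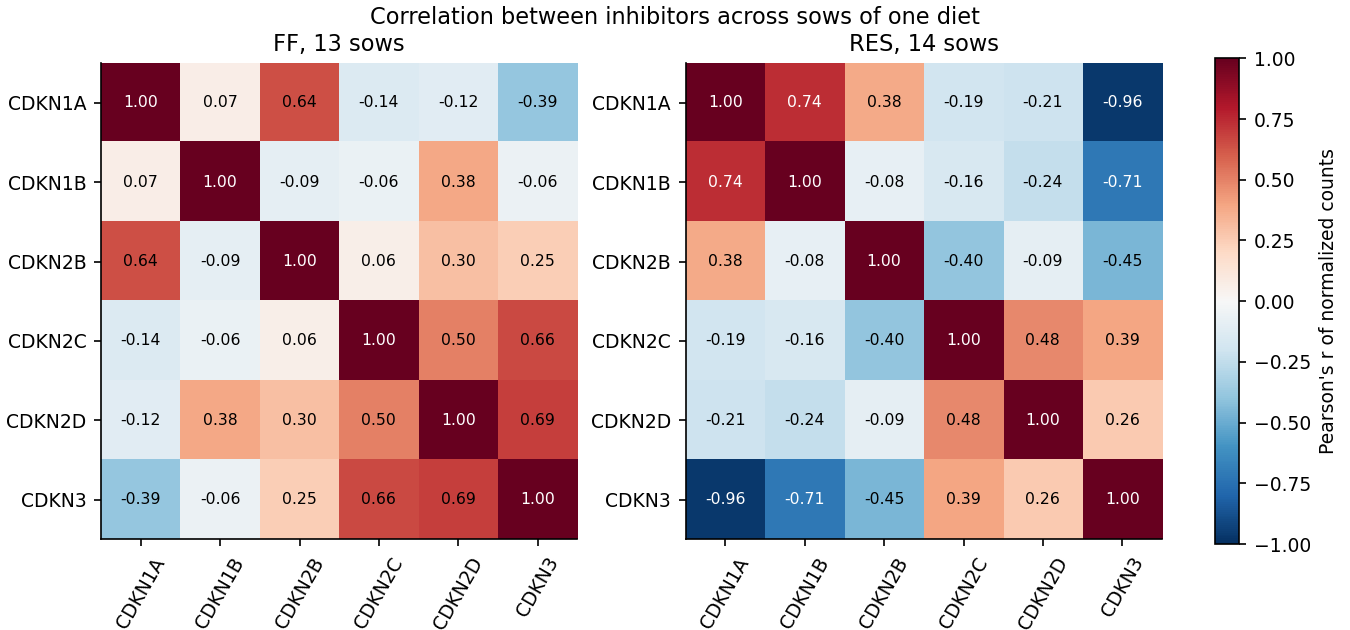
Pearson's r of normalized counts for each pair of tested inhibitors, across the 13 FF sows (left) and the 14 RES sows (right), from blue (-1) to red (1). The strongest square off the diagonal is CDKN1A with CDKN3 in RES, at -0.96, against -0.39 in FF.

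For each tested member, the 3 most similar genes were sought among 9513 genes averaging 20 normalized counts or more, by r over the 27 libraries of log2 values after the group means were removed. This is a description over libraries that differ in depth and cell make-up. For CDKN3 these were SHCBP1, KIF18A and ECT2 (r 0.97 each), of which KIF18A is a mitotic kinesin and ECT2 an exchange factor of cytokinesis. For CDKN2C they were CDCA3, BUB1 and CKAP2 (0.82, 0.81 and 0.81), with BUB1 a kinase of the spindle checkpoint and CKAP2 a spindle protein. For CDKN2D they were H2AZ2, a histone variant with a close paralog, TLNRD1 and TOMM22 (0.79, 0.77 and 0.74). CDKN1A was most like NECAP2, ANGPTL4 and AMHR2 (0.78, 0.77 and 0.76), AMHR2 being the receptor of anti-Mullerian hormone. CDKN1B was most like RMND5A, LEPROT and SBDS (0.84, 0.84 and 0.83). For CDKN2B, whose counts were few, the highest values were those of KYAT1, GTF2A1L and HCLS1 (0.60, 0.58 and 0.58). By the same measure, r with CDK1 was 0.78 for CDKN2C, 0.55 for CDKN2D and -0.55 for CDKN1A.

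Among the targets of the inhibitors, 2 of 4 kinases were called, both higher in RES, CDK1 and CDK2 (log2 fold change 0.68, adjusted p = 0.0057 by edgeR). CDK4 and CDK6, which the INK4 proteins bind, were not called (0.29 and -0.10, adjusted p = 0.128 and 0.749 by edgeR). Of the cyclins, 4 of 8 were called, all higher: CCNB1 (1.32), CCNB2 (1.06), CCNA2 (1.01) and CCNE1 (0.66). Over all genes tested, 8.29% were called higher and 5.85% lower. The call of CCNE1 was lost in the upper quality group (0.64, adjusted p = 0.102 by edgeR) and with a replicate block (0.64, adjusted p = 0.0935), and none of these genes was called in the lower group. The 3 D-type cyclins, partners of CDK4 and CDK6, were not called, with CCND1 at -0.38, CCND2 at 0.17 and CCND3 at -0.25. CCNE2 was not called either (0.56, adjusted p = 0.0574 by edgeR). Its mean was 1093 normalized counts in FF and 1660 in RES, beside 19.3 and 31.6 for CCNE1. The median over the 8 cyclins was 0.61, beside -0.02 over all genes tested. Of the pocket proteins, which bind E2F until CDKs phosphorylate them, RBL1 was called higher (0.52, 1 of 3), a call lost with a replicate block (0.52, adjusted p = 0.0747 by edgeR), and RB1 (-0.06) and RBL2 (-0.20) were not called.

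Genes for the breakdown of inhibitor proteins were called higher in 5 of 14 cases, where 8.29% of all genes were, and lower in none by edgeR. SKP2 (log2 fold change 0.45) and CKS1B (0.94) form the part of the ubiquitin ligase that recognises phosphorylated p27. DTL (0.90) is the substrate receptor of the CUL4 ligase that removes p21 bound to PCNA (0.90), and CDC20 (1.10) activates the anaphase-promoting complex, which also degrades p21. CDC20 lost its call in the upper quality group (1.21, adjusted p = 0.0559 by edgeR). Their scaffolds and adaptors CUL1, SKP1, DDB1, CUL4A and CUL4B lay between -0.02 and 0.14 and were not called. The median of this list was 0.13.

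Of the transcription factors and enzymes that activate inhibitor genes, 14 of 15 were tested and 1 was called, near the 5.85% of all genes called lower: ETS1, lower in RES (log2 fold change -0.53, adjusted p = 0.0309 by edgeR). This call was lost without FF sow 5 or RES sow 1, 3, 11 or 12 (adjusted p of 0.0510 to 0.0551). FOXO1 and FOXO3, which drive p27 transcription when growth factor signalling is low, had -0.41 and -0.33 and were not called (adjusted p = 0.106 and 0.0565 by edgeR). Of the repressors of inhibitor genes, 10 of 11 were tested and 1 was called, near the 8.29% of all genes called higher: EZH2, the methyltransferase of Polycomb complex PRC2, higher in RES (0.58, adjusted p = 0.0090 by edgeR), while SUZ12 of the same complex had 0.23 (adjusted p = 0.0519) and MYC 0.21 (adjusted p = 0.645). The medians of both lists were -0.15 and 0.10.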

How the data were processed

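The deposited values are raw counts per Ensembl gene, without normalization. The authors cleaned the reads with SOAPnuke, aligned them with HISAT2 2.2.1 to Sscrofa11.1, removed PCR copies with UMI-tools 1.1.4 and counted read pairs on exons of Ensembl release 110 with featureCounts 1.6.2 and no strand option. The versions are from the submitters' processing notes and the file headers. Totals were 12299220 to 18120922 counts per library, and intervals and floors cover counting error only.

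Identifiers with a symbol and a mean count of at least 5 were tested (38 small RNAs left out) with edgeR 4.0.16 in R 4.3.3, by TMM and the quasi-likelihood test with Benjamini-Hochberg adjustment, for RES against FF without covariates. Normalized counts used DESeq2 1.42.0 size factors over 17467 identifiers. Correlations used 100000 permutations (all permutations within quality groups) in Python 3.11.15 with numpy 2.4.6, pandas 2.3.3 and scipy 1.17.1, and figures matplotlib 3.10.9. Gene positions, lengths and promoters are from RefSeq (Sscrofa11.1), matched by symbol for 7 members and CDK1. Quality groups and RNA integrity numbers come from the study's supplementary read statistics. Scripts were tested on simulated data. Each sow is 1 library, so p-values measure the spread between sows. Between libraries of a diet, none agreed within sampling noise.

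Named genes are all members, CDK1, the called genes of 6 pathway lists (kinases, cyclins, pocket proteins, turnover, activators, repressors), and the 3 genes most like each tested member. Further genes of these lists and some markers, called or not, are named beside their counts and were chosen after their values were seen. Marker lists covered granulosa, theca, endothelial, mural and smooth muscle, immune, stroma, erythroid and oocyte cells. One gene of the activator list is not reported here by name. The members and lists were chosen with earlier results of these data known. Alternatives were DESeq2's Wald test and size factors, other filters, all identifiers, a replicate block, quality group or RNA integrity as covariate, leaving out libraries, and rank, log2, TMM-scaled or residual correlations.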

Additional observations from a re-analysis of the deposited data

How the results depend on the processing

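Without 1 library at a time, CDKN1A, CDKN2D and CDKN3 were called by edgeR in all 27 fits, with log2 fold changes of -1.29 to -1.07, 0.61 to 0.77 and 0.94 to 1.08. CDKN2C (0.42 to 0.64) was called in 9 of 27, and CDKN1B (-0.16 to -0.08) and CDKN2B (-0.0433 to 0.25, below 0 without FF sow 6 or RES sow 13 or 14) in none. CDKN1A, CDKN2C, CDKN2D and CDKN3 were called under each other setting that kept both quality groups. Called genes numbered 1610, with 58.6% higher in RES. DESeq2's size factors in edgeR gave 1719 and 69.6% higher, DESeq2's Wald test 2111, and the lower quality group 1, from 13 libraries. In that group CDKN1A had -1.02, CDKN2C 0.62, CDKN2D 0.81 and CDKN3 0.88, none called, and CDKN1B turned to 0.0858. In the upper group CDKN2C (0.37) and CDKN2D (0.57) lost the call, and CDKN2B turned to -0.0648. The filterByExpr setting gave no value for CDKN2B. With a replicate block 1084 genes were called, and CDKN2B turned to -0.0234. Equal sow numbers do not pair the samples: the deviations of same-numbered sows had an r of -0.22 to 0.30 (median 0.01) over 13 pairs, 1 above 0.1, and no FF sow correlated best with its own number.

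Pairs of inhibitors past the threshold numbered 4 with r, 2 with rho, 1 without the 2 farthest sows and 1 as quality residuals. Differences with CDK1 between the diets numbered 0 of 6 with r (2 at an unadjusted p under 0.05) and 1 with rho, CDKN2C. The correlation with CDK1 in FF turned for CDKN2B with TMM-scaled counts (-0.0007) and without FF sow 10 (-0.0197) or FF sow 6 (-0.0964), for CDKN1A without the 2 farthest sows (0.0795), and for CDKN1B without the 2 farthest sows (-0.0535), as residuals (-0.0389) and without FF sow 10 (-0.0412). In RES that of CDKN2D turned without the 2 farthest sows (-0.082) and without RES sow 7 (-0.12). With the shortest transcript lengths CDKN3 lay above CDKN1B in 10 FF sows in place of 5. The cause of these changes was not tested. Depth limits CDKN1C, CDKN2A and CDKN2B.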
